A study of Mus musculus with 6 samples.

Results

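The miRNAs encoded opposite the imprinted gene Rtl1 on mouse chromosome 12 were followed in skin of mice irradiated with ultraviolet A (UVA) and in skin of non-irradiated mice. Entries of the deposited count table were kept when their name, without species prefix, arm and copy number, was miR-337, miR-540, miR-665, miR-3070, miR-431, miR-433, miR-127, miR-434, miR-3071 or miR-136. This rule kept 18 of 1480 entries, which are arms of 10 hairpins, and it used no measured value. Of these, 13 had enough reads to be tested and 5 did not: miR-3070-3p, miR-431-3p, miR-433-5p, miR-540-3p and miR-665-3p.

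The UVA mice were irradiated on alternate days over 4 months to a summed dose of 89.88 J/cm2, per the series' design text, and the other mice received no treatment. Each group had 3 small RNA libraries of whole skin RNA, made with the TruSeq small RNA kit after mirVana extraction. The labels give the same housing to all mice and name no strain, genotype or age. They also do not say whether the libraries of a group come from separate animals, so the p-values speak only of the scatter among these 6 libraries.

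Rtl1 is a retrotransposon-derived gene that is transcribed from the paternal chromosome. The maternal chromosome makes a transcript from the opposite strand, and hairpins in that transcript are cut into miRNAs. A hairpin opposite the coding sequence of Rtl1 gives miRNAs that pair with Rtl1 mRNA along their whole length, and in the mouse such miRNAs are known to guide its cleavage. Each hairpin has a 5p and a 3p arm, and usually 1 arm accumulates as the mature miRNA while the other is mostly lost.

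The hairpins lie within 9.609 kb of chromosome 12, between 109585789 and 109595397 in GRCm38. In the GENCODE annotation the hairpins of miR-431, miR-433, miR-127, miR-434 and miR-136 lie opposite the coding sequence in exon 2 of Rtl1, so the name antisense holds for 5 of 10. The hairpin of miR-3071 lies in the same exon but on the strand of Rtl1 itself, opposite miR-136. The hairpins of miR-337, miR-540, miR-665 and miR-3070 lie on the opposite strand between 1162 and 3308 bases beyond that exon, although still inside the longer Rtl1 gene of RefSeq. All 18 entries matched a RefSeq miRNA on GRCm38, with the same sequence as in the deposited table.

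The mature sequences of the members on which the results turn are given 5′ to 3′, from RefSeq, with the seed (bases 2 to 8, the part that pairs first with a target) in capitals.
mmu-miR-127-3p: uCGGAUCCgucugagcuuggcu
miR-434-5p: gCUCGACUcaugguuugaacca
mmu-miR-434-3p: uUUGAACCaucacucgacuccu
mmu-miR-136-5p: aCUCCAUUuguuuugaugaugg
miR-136-3p: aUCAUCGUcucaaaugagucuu
miR-3071-3p: aUCAUCAAaacaaauggagucc
miR-431-5p: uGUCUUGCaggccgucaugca
miR-433-3p: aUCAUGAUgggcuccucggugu
miR-337-5p: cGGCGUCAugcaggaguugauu
miR-540-5p: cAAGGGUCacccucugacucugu
miR-540-3p: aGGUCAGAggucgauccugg
The 18 members had 18 different seeds. No other entry of the table lay within 2 edits of any of them. The pair miR-136-5p and miR-3071-3p overlaps by 20 bases on opposite strands, and miR-136-3p and miR-3071-5p overlap by 19. The sources used here do not give whether the authors' counting used strand.

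For 10 members, both arms of the 5 antisense hairpins, the Rtl1 coding sequence held exactly 1 fully complementary site, without a mismatch. The sites of 4 of them are shown as Rtl1 mRNA, 5′ to 3′, with the match to the seed in capitals, to show how the miRNA reads as the reverse complement of the gene opposite it.
Rtl1 site of miR-127-3p, chr12:109592888-109592909, minus strand, first codon 832: agccaagcucagacGGAUCCGa
Rtl1 site of miR-434-5p, chr12:109594528-109594549, minus strand, first codon 285: ugguucaaaccaugAGUCGAGc
Rtl1 site of miR-434-3p, chr12:109594565-109594586, minus strand, first codon 273: aggagucgagugauGGUUCAAa
Rtl1 site of miR-136-5p, chr12:109595331-109595352, minus strand, first codon 18: ccaucaucaaaacaAAUGGAGu
The miR-136 site lies near the start of the protein and the miR-127 site farther inside it. Rtl1 mRNA itself is not measured by small RNA libraries.

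Levels are given as counts-per-million (CPM) values, relative to the miRNA reads of a library after scaling by TMM, the trimmed mean of M-values.

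**Figure D1:**
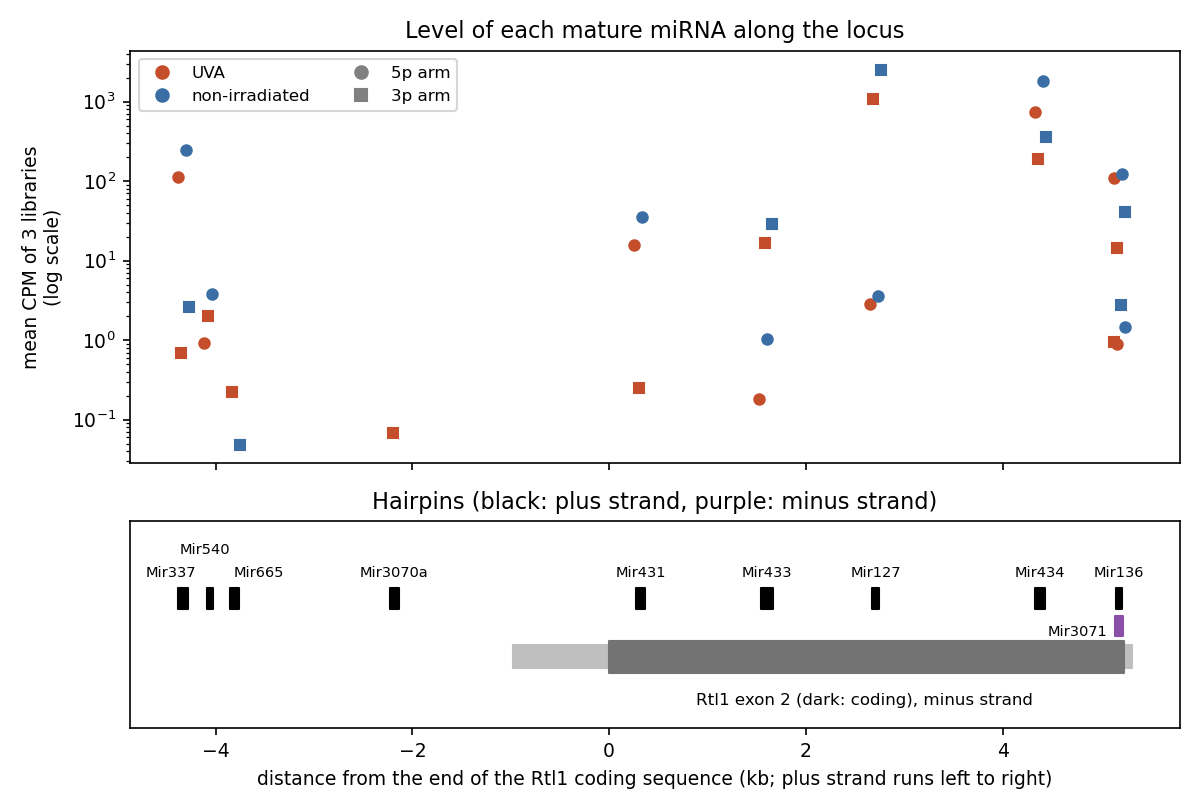
Mean CPM of each member in UVA and in non-irradiated libraries (log axis) by the position of its hairpin, as distance from the end of the Rtl1 coding sequence, with circles for 5p and squares for 3p arms and the exon as a bar. A group mean of 0 cannot stand on a log axis and is not drawn, as for non-irradiated miR-431-3p, miR-540-3p and miR-3070-3p. The most abundant members, miR-127-3p and miR-434-5p, come from hairpins opposite the coding sequence. Beyond the exon, miR-665 and miR-3070 were near 0, but miR-337-5p averaged 114 CPM (UVA) and 249 CPM (non-irradiated). Opposite the coding sequence, miR-431-3p and miR-433-5p were low too, at UVA means of 0.252 and 0.183 CPM. High and low levels were thus found at both positions.

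The libraries held 8194504 to 12817972 miRNA reads in UVA skin and 7653819 to 17192811 in non-irradiated skin. Members took 0.225%, 0.235% and 0.3651% of the miRNA reads in UVA replicates 1, 2 and 3, against 0.3649%, 0.462% and 0.465% in non-irradiated replicates 1, 2 and 3. By this unscaled share UVA replicate 3 and non-irradiated replicate 1 were level, so the groups overlapped. Entries with 1 to 9 reads numbered 579 to 591 in each UVA library, but 21, 34 and 299 in the non-irradiated ones, so low counts are scarce in non-irradiated replicates 1 and 2. Some markers of other cell types also moved with the groups. The summed level of the 13 skeletal muscle entries (miR-1, miR-133, miR-206 and relatives) was 41914 to 58527 CPM in UVA skin and 318633 to 479274 CPM in non-irradiated skin. In non-irradiated skin that sum was mostly miR-1a-3p, at a mean of 362204 CPM. Of the 7 muscle entries tested, miR-1a-3p was called lower and miR-133b-3p higher. The 5 fibroblast entries (miR-199 and miR-214) summed to 19106 to 28739 CPM in UVA-irradiated skin and 2816 to 4234 CPM in non-irradiated skin. The sum of the 13 epidermal entries, including miR-203 and miR-205, overlapped between the groups, at 34822 to 86851 CPM in UVA-irradiated skin and 44762 to 55033 CPM in non-irradiated skin, although 2 of them, miR-205-5p and miR-141-5p, were called higher. So did the sum of the 9 neural entries (miR-9, miR-124 and others), at 183 to 262 CPM in UVA skin, against 178 to 247 CPM in non-irradiated skin, with 1 of 5 tested, miR-338-3p, called higher. Of these called markers, miR-133b-3p, miR-141-5p and miR-338-3p were named after their values were seen. No marker entry was at 0 in all 6 libraries.

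Summed over the 18 members, the level was 1839, 1941 and 3066 CPM in UVA skin, against 4408, 6067 and 5183 CPM in non-irradiated skin. With this scaling every UVA library lay below every non-irradiated one, but on library size alone and on the authors' total reads the groups overlapped. The means were 2282 ± 681 CPM in UVA-irradiated skin and 5219 ± 830.2 CPM in non-irradiated skin (SD, n = 3 each), a log2 ratio of -1.19, against -0.65 on library size alone and -0.51 on the authors' total reads. In whole skin, fewer cells of a type and less RNA per cell cannot be told apart. The sum rests on few members, since miR-127-3p and miR-434-5p made up 82.3% of all member reads.

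The most abundant member was mmu-miR-127-3p, which in the mouse is known to act on Rtl1 in the placenta. It had 567, 1277 and 1361 CPM in UVA skin, against 2008, 3372 and 2226 CPM in non-irradiated skin. The groups did not overlap with TMM or on library size alone, but did on the authors' total reads, and UVA replicate 1 was the lowest library. The means were 1069 ± 436 CPM in UVA-irradiated skin and 2535 ± 733 CPM in non-irradiated skin (SD, n = 3 each). The log2 fold change of UVA over non-irradiated was -1.25 with a standard error of 0.47, and it did not pass the test (edgeR adjusted p = 0.0798). A call here means an adjusted p of at most 0.05 in edgeR's quasi-likelihood test, adjusted by Benjamini and Hochberg over the 499 entries tested. Its opposite arm, mmu-miR-127-5p, was rare, at 4.59, 2.46 and 1.43 CPM in UVA-irradiated skin and 1.16, 4.20 and 5.39 CPM in non-irradiated skin. Those ranges overlapped, with a log2 fold change of -0.33 (standard error 0.91, edgeR adjusted p = 0.822).

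The miR-434 hairpin gave 2 abundant arms. The 5p arm had 775, 289 and 1163 CPM in UVA skin, against 1624, 1854 and 2034 CPM in non-irradiated skin. With TMM every UVA library was lower than every non-irradiated one, and UVA replicate 2 was lowest. On library size alone the groups overlapped, with UVA replicate 3 at 1386 CPM and non-irradiated replicate 1 at 1344 CPM. Its means were 743 ± 438 CPM in UVA-irradiated skin and 1837 ± 206 CPM in non-irradiated skin (SD, n = 3 each), a log2 fold change of -1.31 (SE 0.53) that was not called (edgeR adjusted p = 0.0932). The 3p arm, mmu-miR-434-3p, had 103, 219 and 253 CPM in UVA skin, against 318, 365 and 379.9 CPM in non-irradiated skin. These groups did not overlap with TMM but overlapped on library size alone, where UVA replicate 3 exceeded non-irradiated replicates 1 and 2. The lowest UVA library was replicate 1, as for miR-127-3p, and not replicate 2. The 3p difference was -0.89 on the log2 scale (standard error 0.49, edgeR adjusted p = 0.194).

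**Figure D2:**
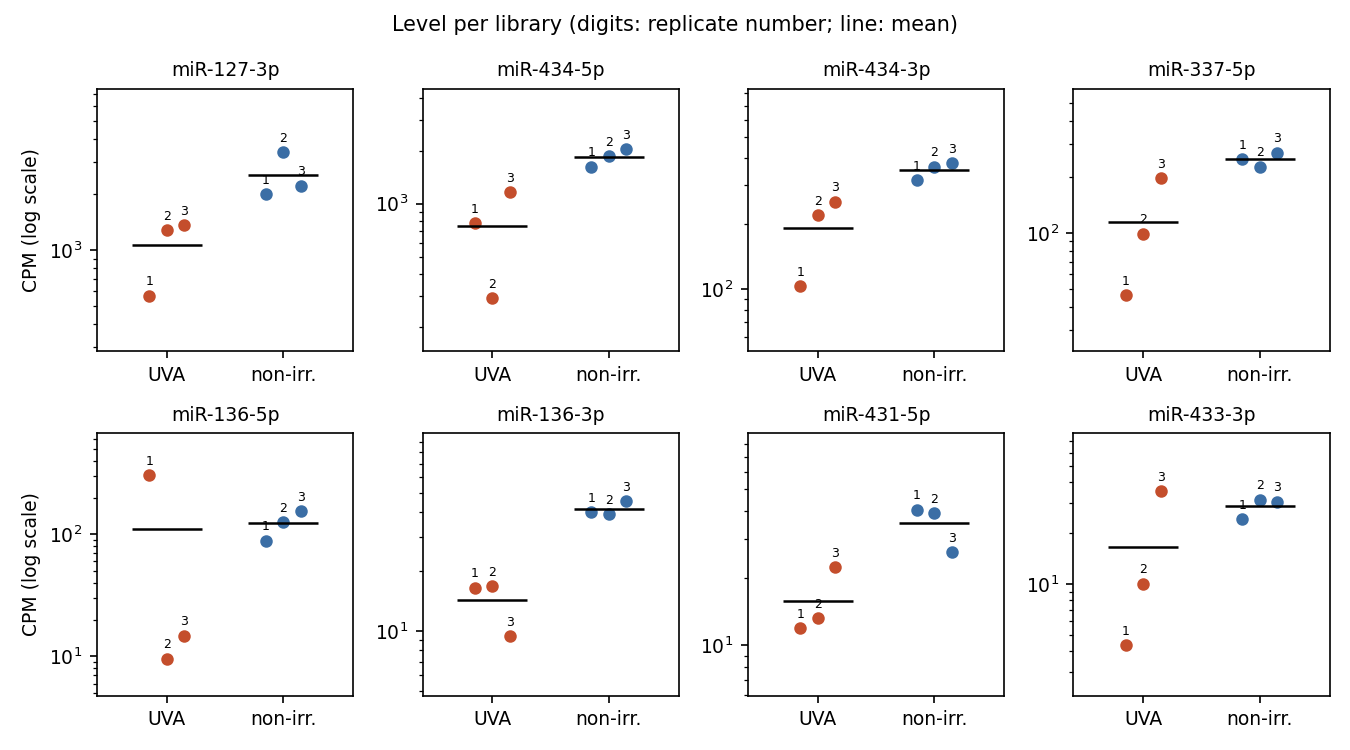
Level of the 8 most abundant members in every library (CPM, log axes that differ between panels), with UVA libraries left of non-irradiated ones, replicate numbers at the points and bars at the group means. The UVA points of miR-127-3p, miR-434-5p, miR-434-3p, miR-337-5p, miR-136-3p and miR-431-5p all lie below the non-irradiated ones with this TMM scaling (on library size alone, those of miR-127-3p and miR-136-3p), while 1 UVA library of miR-136-5p lies above them all.

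The miR-136 arms behaved unlike each other. For miR-136-3p the levels were 16.6, 16.9 and 9.43 CPM in UVA skin, against 39.9, 39.0 and 45.4 CPM in non-irradiated skin. The spread within each group was small beside the gap between them with TMM, and the groups stayed apart on library size alone but not on the authors' total reads. The means of 14.3 ± 4.22 CPM in UVA-irradiated skin and 41.4 ± 3.49 CPM in non-irradiated skin (SD, n = 3 each) gave a log2 fold change of -1.53 (SE 0.51), with the lowest adjusted p of the tested members, which still missed the threshold (edgeR adjusted p = 0.0585).

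The other arm, mmu-miR-136-5p, had 305, 9.56 and 14.8 CPM in UVA skin, against 88.5, 126 and 154 CPM in non-irradiated skin. UVA replicate 1 was higher than all non-irradiated libraries and the other UVA libraries were lower than all of them. In reads, these were 4786, 132 and 144 in UVA skin and 1066, 1649 and 1059 in non-irradiated skin, so counting error is small beside that spread. With all libraries the log2 fold change was -0.16 (standard error 1.08, edgeR adjusted p = 0.939). Without UVA replicate 1 the UVA mean was 12.2 CPM in place of 109.9 CPM, and the log2 fold change of -3.43 was called (edgeR adjusted p = 0.00578). UVA replicate 1 also had the highest sum of the 3 red blood cell entries (miR-451a and miR-144), which was 3127, 534 and 658 CPM in UVA skin, against 1301, 538 and 1290.5 CPM in non-irradiated skin. The part of blood in the miR-136-5p value was not tested. In that library miR-127-3p and miR-434-3p were at their lowest.

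The arms of miR-3071, read from the other strand of the miR-136 site, were close to the limit of counting. miR-3071-3p had 8, 11 and 15 reads in UVA skin and 0, 26 and 44 reads in non-irradiated skin. miR-3071-5p had 20, 10 and 7 reads in UVA skin and 35, 0 and 10 reads in non-irradiated skin. Neither was called, at log2 fold changes of -1.55 (standard error 1.41, edgeR adjusted p = 0.432) for the 3p arm and -0.67 (standard error 1.32, edgeR adjusted p = 0.735) for the 5p arm. Each depends on 1 library: without non-irradiated replicate 3 the non-irradiated mean of the 3p arm was 0.993 CPM in place of 2.80 CPM, and without non-irradiated replicate 1 that of the 5p arm was 0.728 CPM in place of 1.45 CPM. In UVA replicate 1 the high miR-136-5p was not accompanied by a high miR-3071-3p, the entry that overlaps it on the other strand.

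The hairpins of miR-431 and miR-433 lie nearest the end of the Rtl1 coding sequence. miR-431-5p, described in the mouse as a regulator of the muscle stem cell factor Pax7, had 11.9, 13.2 and 22.3 CPM in UVA skin, against 40.4, 39.0 and 26.1 CPM in non-irradiated skin. With TMM the groups did not overlap, though UVA replicate 3 and non-irradiated replicate 3 were close. On library size alone their order turned, at 26.6 CPM in UVA replicate 3 and 23.4 CPM in non-irradiated replicate 3. Its log2 fold change stood at -1.15 (standard error 0.53, edgeR adjusted p = 0.131). miR-433-3p had 4.34, 9.99 and 35.6 CPM in UVA skin, against 24.2, 31.5 and 30.7 CPM in non-irradiated skin. Here UVA replicate 3 exceeded every non-irradiated library and the other UVA libraries lay below them. The log2 fold change was -0.79 (standard error 0.74, edgeR adjusted p = 0.443), and without UVA replicate 3 it was -1.99 and called (edgeR adjusted p = 0.0476), with a UVA mean of 7.16 CPM in place of 16.6 CPM.

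The opposite arms of both hairpins had too few reads for the test. miR-433-5p had 2, 3 and 2 reads in UVA skin, against 13, 9 and 9 reads in non-irradiated skin, and the groups did not overlap. miR-431-3p had 2, 3 and 4 reads in UVA skin and 0 in each non-irradiated library. A count of 0 allows up to 3 reads, so in miR-431-3p no fold is given.

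The hairpins outside exon 2 of Rtl1 gave 1 abundant arm, miR-337-5p. It had 46.2, 99.1 and 196 CPM in UVA skin, against 249.7, 227 and 269.8 CPM in non-irradiated skin. With TMM the groups did not overlap, and the UVA libraries were more spread than the non-irradiated ones. On library size alone UVA replicate 3, at 234 CPM, exceeded non-irradiated replicates 1 and 2, at 207 and 173 CPM. The means of 114 ± 76.2 CPM in UVA-irradiated skin and 249 ± 21.6 CPM in non-irradiated skin (SD, n = 3 each) gave a log2 fold change of -1.13 (standard error 0.57, edgeR adjusted p = 0.163). Without UVA replicate 3 the UVA mean was 72.6 CPM and the log2 fold change of -1.76 was called (edgeR adjusted p = 0.0415). The 3p arm had 0.574, 1.09 and 0.410 CPM in UVA-irradiated skin and 4.32, 2.90 and 0.582 CPM in non-irradiated skin, with overlap and a log2 fold change of -1.90 (standard error 1.03, edgeR adjusted p = 0.188).

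The arms of miR-540 had values in opposite directions. miR-540-5p had 25, 10 and 4 reads in UVA skin, against 76, 46 and 12 reads in non-irradiated skin. As TMM-scaled CPM the groups did not overlap, at 0.910 ± 0.614 in UVA skin and 3.86 ± 2.30 in non-irradiated skin (SD, n = 3 each), and the log2 fold change of -2.06 (SE 0.97) was not called (edgeR adjusted p = 0.135). On library size alone they overlapped, with 1.95 CPM in UVA replicate 1 and 1.57 CPM in non-irradiated replicate 3, and without UVA replicate 1 the TMM-scaled UVA mean was 0.567 CPM. miR-540-3p had 7, 13 and 46 reads in UVA skin and 0 reads in each non-irradiated library, against a limit of 3 reads per library for a count of 0. Its UVA mean of 2.03 CPM was 6.67 times that limit, which averaged 0.305 CPM in non-irradiated skin. Without UVA replicate 3 the UVA mean was 0.694 CPM. The limit takes low counts as kept, but these were scarce in non-irradiated replicates 1 and 2, so the ratio is not a lower bound. The entry fell below the read filter, so it had no adjusted p beside the others. Where a setting let it in, edgeR without a filter called it higher in UVA (adjusted p = 0.0136), as did DESeq2 (adjusted p = 0.00197). edgeR without a filter called 5.14% of all entries higher, and DESeq2 15.5%. With 0 reads in non-irradiated skin, it could pass the read filter only through its UVA reads. The edgeR adjusted p was 0.034 without UVA replicate 1 and 0.0432 to 0.0719 without 1 non-irradiated replicate. Without UVA replicate 2 or UVA replicate 3 it stayed below the filter and had no value. That range thus covers only fits in which its UVA reads were high enough.

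Within miR-540, the 3p arm took 21.9% (95% exact interval 9.28% to 39.97%), 56.5% (34.5% to 76.8%) and 92% (80.8% to 97.8%) of the reads in UVA replicates 1, 2 and 3. In non-irradiated skin it took 0 of 76, 46 and 12 reads, which allows shares of up to 3.95%, 6.52% and 25%. These intervals and limits cover counting error only. Low counts of any kind were scarce in non-irradiated replicates 1 and 2, where the lowest member count above 0 was 13 and 9 reads, against 1 read in non-irradiated replicate 3; in the UVA libraries it was 2, 3 and 2 reads. The part of that scarcity in the miR-540-3p and miR-431-3p zeros was not tested. The remaining members were at the edge of detection: miR-665-3p had 4, 0 and 4 reads in UVA skin and 0, 0 and 1 reads in non-irradiated skin, and miR-3070-3p had 2 reads in UVA replicate 3 and 0 in all other libraries.

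In the main edgeR fit, with TMM, all 13 tested members had a negative log2 fold change. The number was 11 on library size alone, 10 on the authors' total reads and 12 with the muscle entries removed. With TMM kept, it was 11 with limma-voom, and 12 both with the replicate block and without a filter. The TMM median was -1.15 and the range -2.06 to -0.16, where 44.5% of all tested entries were negative and their median was 0.27. Of the 5 untested members, which these counts leave out, 4 had more reads in UVA skin and 1, miR-433-5p, had fewer. None was called by edgeR, in either direction, while 21.8% of all tested entries were called, 13.6% higher and 8.22% lower. At an unadjusted p of at most 0.05, 3 members were lower, miR-127-3p, miR-434-5p and miR-136-3p, against 15.6% of all tested entries. With TMM the groups did not overlap in 7 of 13, in each with UVA lower, where 48.3% of all tested entries did not overlap and 20% did so with UVA lower. That count was 2 on library size alone, miR-127-3p and miR-136-3p (12.2% of all tested entries), and 0 on the authors' total reads (8.82%). It was 6 with RLE (relative log expression) scaling (21.2% of all tested entries), with upper-quartile scaling (19.8%) and with muscle entries removed (17.8%). In each of these settings miR-540-5p overlapped. DESeq2 called 0 members lower, and 7.42% of all entries. It gave no adjusted p for miR-136-5p, the 1 of the 13 members whose DESeq2 log2 fold change was not negative. limma-voom called 3 lower: miR-127-3p (adjusted p = 0.0454), miR-434-5p (adjusted p = 0.0429) and miR-136-3p (adjusted p = 0.0395), where it called 13.4% of all tested entries lower. With only entries of at least 10 CPM in 3 libraries tested, edgeR called miR-127-3p (adjusted p = 0.0435) and miR-136-3p (adjusted p = 0.0448) lower, where 16.2% of entries were. With upper-quartile scaling 1 member was called lower, miR-136-3p (edgeR adjusted p = 0.0486), against 9.22% of all tested entries. Without UVA replicate 3 edgeR called 3 members lower, miR-337-5p, miR-433-3p and miR-434-5p (adjusted p = 0.0442), against 10.9% of all entries. Without UVA replicate 1 it called miR-136-5p lower, against 8.42% of all entries.

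**Figure D3:**
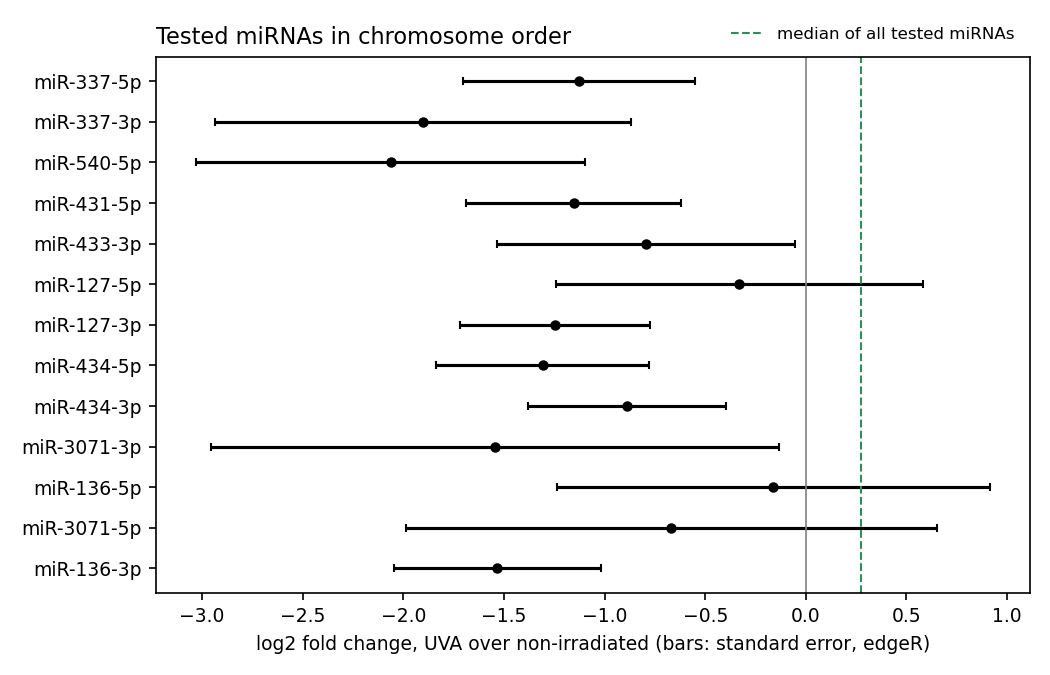
Log2 fold change of UVA over non-irradiated for each tested member with its standard error, and the median of all tested entries as a line. In this main edgeR fit, with TMM scaling, all 13 members lie below 0, between -2.06 and -0.16, and the line stands at 0.27. Fewer did so in other fits (11 on library size alone, 10 on the authors' total reads, 11 with limma-voom).

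The scaling set how far below 0 the members stood. Under TMM the median of all tested entries was 0.27 and that of the members -1.15, a difference of -1.43. On library size alone the medians were 0.81 for all entries and -0.60 for the members, and 11 of 13 members were negative, with miR-127-5p and miR-136-5p positive. On the authors' total reads they were 1.12 for all entries and -0.53 for the members, with miR-3071-5p positive as well. The gap between the medians of members and all entries was thus -1.40 on library size and -1.65 on total reads. A change of scaling moves members and all entries nearly alike, so a similar gap is no separate result. At an unadjusted p of at most 0.05, no member differed under either. With the skeletal muscle entries taken out before scaling, the median of the members was -1.07 and miR-127-3p stood at -1.14 (edgeR adjusted p = 0.0657).

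Ratios between members within a library do not depend on scaling. The ratio of miR-127-3p to miR-434-3p reads was 5.52, 5.84 and 5.38 in UVA skin and 6.32, 9.23 and 5.86 in non-irradiated skin. It was nearly constant across UVA libraries although the miR-127-3p level ranged from 567 to 1361 CPM among them. The ratio of the miR-434 arms, 5p over 3p, was 7.53, 1.32 and 4.60 in UVA skin, against 5.11, 5.07 and 5.35 in non-irradiated skin. The non-irradiated libraries were almost identical and the UVA libraries fell on both sides of them. For miR-136 the same ratio was 18.4, 0.567 and 1.57 in UVA skin, against 2.22, 3.23 and 3.39 in non-irradiated skin, again on both sides.

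Arm use was tested with limma on the log2 ratio of 5p to 3p reads over the 79 hairpins with at least 10 reads of each arm in each library, of which 35.4% were called. Of the member hairpins miR-127, miR-136 and miR-434 could be tested and none was called. The difference of UVA minus non-irradiated was 1.08 for miR-127 (standard error 0.75, limma adjusted p = 0.243), -0.19 for miR-136 (standard error 0.75, limma adjusted p = 0.854) and -0.53 for miR-434 (standard error 0.75, limma adjusted p = 0.584). limma gave nearly the same standard error to all 79 hairpins, so these standard errors and p-values do not reflect the scatter of each hairpin itself. The standard deviation of the miR-434 log2 ratio was 1.29 in UVA skin and 0.042 in non-irradiated skin (n = 3 each). For miR-136 it was 2.58 in UVA skin and 0.336 in non-irradiated skin, and for miR-127 it was 1.49 and 1.02.

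**Figure D4:**
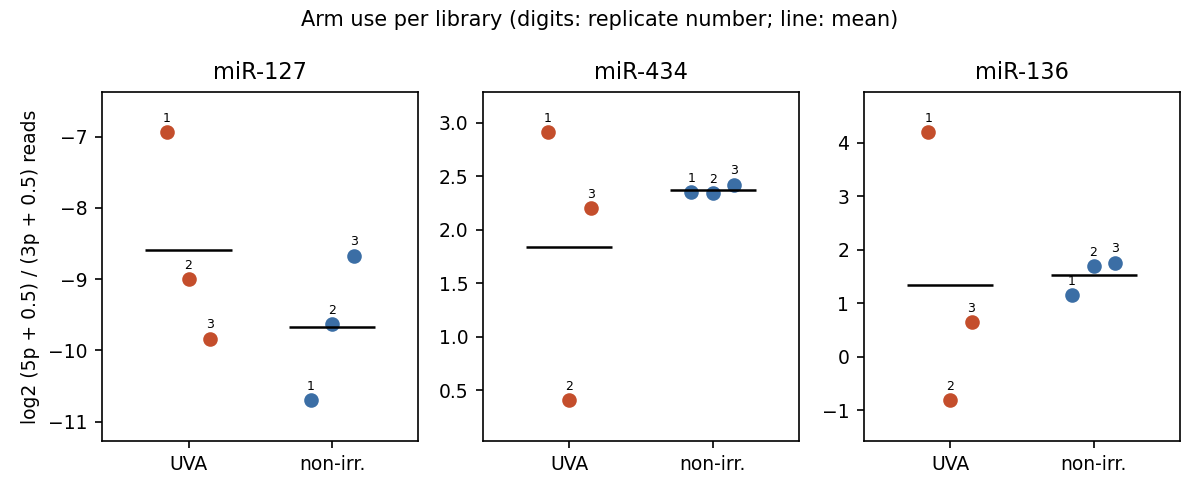
Log2 ratio of 5p to 3p reads, with 0.5 added to each, of miR-127, miR-434 and miR-136 in every library, with UVA libraries left of non-irradiated ones. Non-irradiated miR-434 libraries lie together (SD 0.042) while the UVA libraries are spread (SD 1.29), and no hairpin passed the test.

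The make-up of the member reads had a wider range among UVA libraries for the 3 entries that follow. miR-127-3p took 30.9%, 65.8% and 44.4% of the member reads in UVA skin, against 45.5%, 55.6% and 42.9% in non-irradiated skin. miR-434-5p took 42.1%, 14.9% and 37.9% in UVA skin and 36.8%, 30.6% and 39.2% in non-irradiated skin. miR-136-5p took 16.6%, 0.492% and 0.481% in UVA skin and 2.01%, 2.08% and 2.98% in non-irradiated skin. The coefficient of variation of the CPM was higher in UVA skin for 9 of 13 tested members. That difference in spread was not tested. The share of all tested entries with a higher coefficient in UVA skin was not counted, so the wider spread is not shown to be particular to the members.

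The Rtl1 hairpins are followed on the same maternal strand by the large miR-379 to miR-410 cluster, with 64 entries, of which 41 were tested. In the cluster 13 entries fell, none rose and 28 were not called, with a median log2 fold change of -1.26 against -1.15 in the Rtl1 members. Its summed level was 2244 ± 1084 CPM in UVA-irradiated skin and 13759 ± 2003 CPM in non-irradiated skin (SD, n = 3 each). The reads of the Rtl1 members divided by those of the cluster gave 1.02, 1.34 and 0.881 in UVA skin, against 0.304, 0.397 and 0.451 in non-irradiated skin. The groups did not overlap, and the ratio is free of scaling. It rests on the most abundant entries, since miR-379-5p alone averaged 7370 of the 13759 CPM of the cluster in non-irradiated skin. The medians of the cluster and the members, at -1.26 and -1.15, were close. The most abundant cluster entry, miR-379-5p, averaged 714 ± 413 CPM in UVA-irradiated skin and 7370.0 ± 2254 CPM in non-irradiated skin (SD, n = 3 each), with a log2 fold change of -3.37 (standard error 0.53, edgeR adjusted p = 0.0045). For miR-411-5p the log2 fold change was -3.48 (standard error 0.45, edgeR adjusted p = 0.00196), while miR-541-5p, at -1.94 (SE 0.63), was not called (edgeR adjusted p = 0.0521).

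Of the other miRNAs of the Dlk1-Dio3 imprinted region, 5 of 13 entries were tested, 1 fell and the median was -1.12. The most abundant, miR-370-3p, averaged 37.1 ± 39.3 CPM in UVA-irradiated skin and 80.4 ± 24.6 CPM in non-irradiated skin (SD, n = 3 each), with a log2 fold change of -1.12 (standard error 0.74, edgeR adjusted p = 0.265). The next in level were miR-341-3p at -0.45 (edgeR adjusted p = 0.636) and miR-1247-3p at 1.36 (edgeR adjusted p = 0.443).

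**Figure D5:**
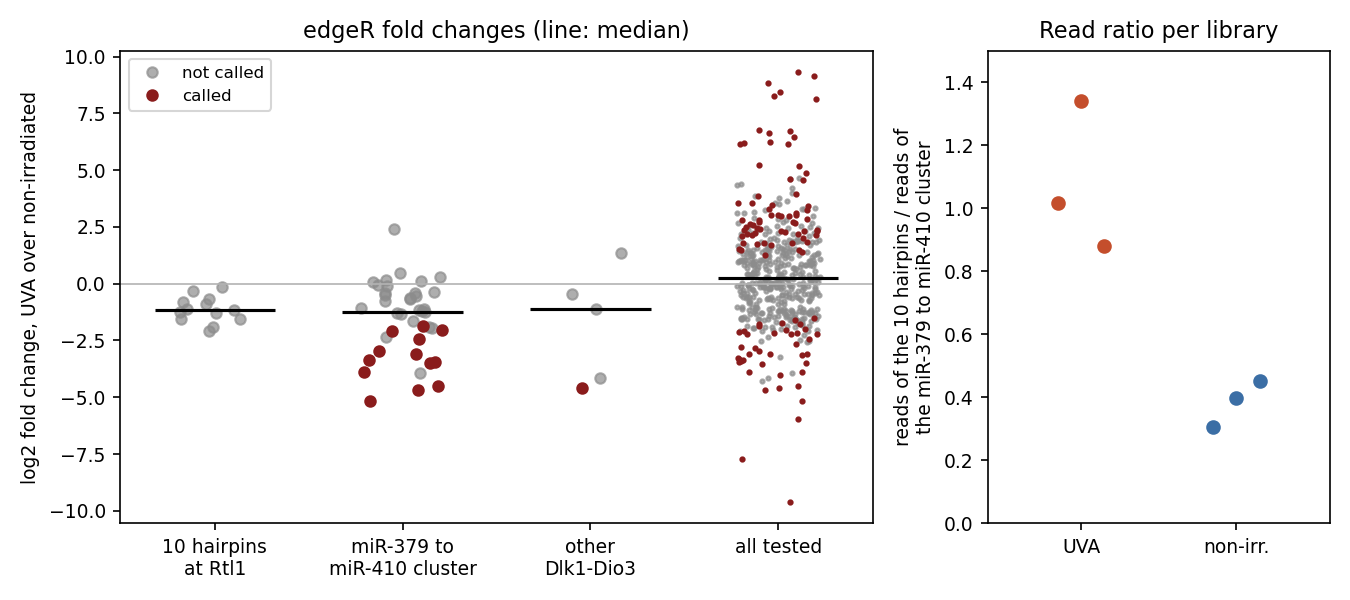
Log2 fold change of UVA over non-irradiated for each tested entry of the Rtl1 members, the miR-379 to miR-410 cluster, the other Dlk1-Dio3 miRNAs and all tested entries, with lines at the medians and called entries in dark red, and beside it the ratio of member to cluster reads in each library. The medians are -1.15, -1.26, -1.12 and 0.27, no Rtl1 member is called, and the ratio lies between 0.881 and 1.34 in UVA skin and between 0.304 and 0.451 in non-irradiated skin.

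The muscle markers differed among themselves. The main skeletal and heart muscle miRNA, miR-1a-3p, fell to 36976 ± 17160 CPM in UVA skin, against 362204 ± 70709 CPM in non-irradiated skin (SD, n = 3 each), a log2 fold change of -3.29 (standard error 0.43, edgeR adjusted p = 0.00196). Skeletal muscle miR-206-3p had 3589, 4284 and 29616 CPM in UVA-irradiated skin and 41514, 21013 and 21029 CPM in non-irradiated skin, with a log2 fold change of -1.16 (edgeR adjusted p = 0.26). In UVA skin the highest library of miR-206-3p was replicate 3. The same library held the highest UVA levels of miR-127-3p, miR-434-5p, miR-434-3p, miR-337-5p, miR-431-5p, miR-433-3p and miR-3071-3p. It held the lowest UVA levels of miR-136-3p, miR-127-5p, miR-540-5p, miR-337-3p and miR-3071-5p. miR-1a-3p ran the other way from miR-206-3p, at 54395, 36446 and 20088 CPM in UVA replicates 1, 2 and 3. Of the 7 muscle entries tested, 1 was called lower, miR-1a-3p, and 1 higher, miR-133b-3p (log2 fold change 1.84, edgeR adjusted p = 0.0459). The part of muscle content in the member values was not tested.

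The members were compared with miR-127-3p by Pearson's correlation of log2 CPM across the 6 libraries, which differ in group and depth, so these values describe likeness only. The closest member was miR-434-3p at 0.96, ranked 3 of 498 other tested entries, followed by miR-337-5p at 0.89, miR-431-5p at 0.86 and miR-433-3p at 0.84. In contrast, miR-434-5p stood at 0.59, and miR-136-5p at -0.02 and miR-127-5p at -0.03 showed no likeness. Of 486 tested entries outside the members, the closest were miR-184-3p at 0.97, miR-676-5p at 0.96, miR-323-3p at 0.95, miR-99b-5p at 0.95 and miR-467d-5p at 0.95. Of these, miR-323-3p belongs to the miR-379 to miR-410 cluster and miR-184-3p was called lower in UVA (log2 fold change -2.19, SE 0.58, edgeR adjusted p = 0.0259).

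In the authors' deposited table, no member had a q-value of at most 0.05, where 3.99% of its 1480 entries did. The authors' deposited table gives a log2 fold change of -1.25 for miR-127-3p (p = 0.0329, q = 0.306) and -1.28 for miR-434-5p (p = 0.0367, q = 0.330). For miR-136-3p the authors' deposited table gives -1.46 (p = 0.0867, q = 0.474), and for miR-136-5p a log2 fold change of 0.03, opposite in sign to the -0.16 of edgeR. For miR-540-3p, with a non-irradiated mean of 0, the authors' deposited table lists an infinite fold change (p = 0.0178, q = 0.219).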

How the data were processed

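Small RNA was sequenced from skin of UVA-irradiated and non-irradiated mice (3 libraries each), and groups and replicate numbers come from the labels. The deposited table lists whole read counts for each mature miRNA. The submitters' processing notes name Bowtie, and the sources used here give no version, genome build or counting rule. Dividing counts by the deposited RPM gave 1 constant per library, with a largest relative deviation of 4.8e-15, taken as the authors' total reads. The authors' mean normalized counts (a signal), their fold ratio, its log2 value and the p-values and q-values were read only from the authors' deposited table.

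Counts were tested with edgeR 4.0.16 in R 4.3.3 (TMM, filterByExpr, quasi-likelihood test, Benjamini-Hochberg over the 499 tested entries). Arm use was tested with limma 3.58.1 on log2((5p + 0.5)/(3p + 0.5)). Alternatives were other scalings and filters, DESeq2 1.42.0, limma-voom, a replicate block and leaving out libraries. Both the edgeR and limma steps were tested on simulated data. Shares carry 95% exact binomial intervals. An exact permutation test of 3 against 3 cannot go below 0.1 and was not used. A further 2 lines of the tables were empty and not analysed here.

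Named entries are all members, the most abundant tested entries of each comparison and marker list (3 and 2), and the 5 entries most like miR-127-3p. The members, lists and tests were chosen with earlier results of these data known. Sequences come from RefSeq and positions from GENCODE M21 and RefSeq, on GRCm38.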

Additional observations from a re-analysis of the deposited data

How the results depend on the processing

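Of 215 member log2 fold changes with an adjusted p under other settings, 189 kept their direction and side of the threshold, 10 were newly called and 16 changed sign. The DESeq2 value of miR-136-5p had no adjusted p and is not among them. Every sign change was in miR-127-5p, miR-136-5p, miR-3071-5p or miR-3071-3p, and its cause was not tested. On library size alone, miR-127-5p was at 0.21 and miR-136-5p at 0.39, with 122 entries called higher and 27 lower (68 and 41 with TMM) and a summed member log2 ratio of -0.65. On the authors' total reads, miR-127-5p was at 0.60, miR-136-5p at 0.84 and miR-3071-5p at 0.15, with 147 higher, 22 lower and a summed ratio of -0.51. miR-136-5p was at 0.31 with muscle entries removed, 0.052 without a filter and 0.088 with entries of at least 10 CPM, but at -1.72 with limma-voom and -2.17 with the replicate block, against -0.16 in the main setting, and was called under none of these. limma-voom put miR-3071-3p at 0.32 and miR-3071-5p at 0.94, and called 67 entries and 3 members lower. DESeq2 called 117 entries and 1 member, miR-540-3p, higher, as did edgeR without a filter (1 member). Members called lower numbered 2 with entries of at least 10 CPM and 1, miR-136-3p, with upper-quartile scaling.

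Without 1 library at a time, 20 to 85 entries were called higher and 18 to 60 lower, 0 to 1 members higher, 0 to 3 members lower and 17 to 31 hairpins in arm use (28 with all libraries), and the summed ratio was -1.51 to -1.09. Over the same fits miR-127-5p ranged from -0.93 to 0.17, miR-136-5p from -3.43 to 0.39 and miR-3071-5p from -1.47 to 0.16, and the arm difference from 0.25 (without UVA replicate 1) to 1.70 (without UVA replicate 3) for miR-127 (1.08 with all libraries), from -1.62 to 0.89 for miR-136 and from -1.07 to 0.19 for miR-434. Without UVA replicate 3, miR-337-5p, miR-433-3p and miR-434-5p were called lower. Without UVA replicate 1, miR-136-5p was called lower and miR-540-3p higher, and without non-irradiated replicate 3, miR-540-3p was higher. Without non-irradiated replicates 1 and 2 together, 0 entries were called higher and 1 lower, and the summed ratio was -1.58; the lone library is assumed to vary like the others.

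Libraries sharing a replicate number showed little likeness (correlations of deviations 0.085, -0.076 and -0.027). The labels name no pairing, and correlations from 3 libraries per group cannot exclude it. With the replicate block 61 entries were higher and 45 lower, 0 members were called, 11 hairpins were called in arm use, and miR-3071-5p was at 0.18. Depth limits the 5 untested members, the miR-3071 and miR-540 arms, miR-127-5p and miR-337-3p, which had fewer than 100 reads in each library.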
